A study of Mus musculus with 80 samples.

Results

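The hearts of wild-type (WT) mice were set against the brain, kidney, liver and lung of WT mice. The 8 arrays whose titles give WT and heart were chosen out of the 80 arrays of the series, with the 32 WT arrays of the other organs as the comparison and the 40 knockout (KO) arrays as a second, separate set of animals. The study asked whether mice that lack serum carboxylesterase could serve as a model for nerve agent exposure, and it measured total RNA from frozen whole organs on Affymetrix HT MG-430 PM arrays. All mice were untreated and of C57BL/6 background, the WT animals carried no knockout, and the labels give no age. The WT hearts came from 4 females and 4 males. By the animal numbers in the titles, the 8 hearts, brains, kidneys and livers came from the same 8 animals, and 5 of the 8 lungs came from those animals too. The labels do not divide the heart into chambers, so a heart array holds whatever atrial, ventricular, valve and vessel tissue the sample held.

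A heart muscle cell contracts when calcium, released from the sarcoplasmic reticulum through the ryanodine receptor, binds the troponin complex on the thin filament and lets myosin of the thick filament pull on actin. The work is paid for mainly by mitochondrial oxidation of fatty acids, and a creatine kinase shuttle carries the energy to the filaments. Atrial and ventricular muscle use partly different light chains, and both can release natriuretic peptides.

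The values are log2 expression, where a difference of 1 is a 2-fold change, and array medians lay between 3.94 and 4.22, so values of about 3 to 4 are near the background of the arrays. One probe set stood for each of 17097 genes. On all 80 arrays the organ marker list with the highest level was that of the organ in the title. Of the 3 markers given for heart, Tnnt2 (cardiac troponin T) was at 12.9 to 13.21 and Nppa (atrial natriuretic peptide) at 12.78 to 13.18 in the 8 WT hearts, and Myh6 (the main myosin heavy chain of adult mouse heart) was not analysed here under its own name. The heart of male 903 stood apart. Its liver marker list (18 genes) averaged 9.68, against 4.10 to 5.49 in the other 7 hearts, and results that this touches are given with and without it. Of the other WT arrays, the brain of 1264, the livers of 1264 and 1265 and the lungs of 903, 1265 and, less so, 1960 had raised skeletal muscle genes, with list means of 4.59 to 6.02 where most arrays of those organs lay near 4.

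A gene was called heart-enriched when its mean in heart was at least 1 log2 unit above the mean of each of the 4 other organs with an adjusted p under 0.05 in every comparison (limma, Benjamini-Hochberg over 17097 genes, so that p measures the spread among these animals), and heart-depleted when the same held downwards. By this rule 568 genes (3.32%) were heart-enriched and 154 (0.901%) were heart-depleted. In 548 of the 568 enriched genes all 8 hearts lay above all 32 other arrays, and in 139 of the 154 depleted genes all 8 lay below them. Of the enriched genes, 248 stood at least 4-fold and 96 at least 16-fold above the next organ, while 34 depleted genes stood at least 4-fold below the lowest other organ. Where the lower level lies near background, as for Myl2 outside heart and Mal2 in heart, the size of a difference depends on that background, so the sizes of such genes have no firm order. The 15 enriched genes farthest above the next organ held genes of the filaments and Z disc, among them Myl2, Myl3 and Mybpc3. They also held genes of other function, such as Nppb, Rpl3l, Hrc and Itgb1bp2. Among the rest were Lrrc2 (a leucine-rich repeat protein, 6.77 ± 0.12 above lung), Asb11 (a ubiquitin ligase adaptor, 6.24 ± 0.13 above brain) and the unnamed 1110002E22Rik (6.23 ± 0.24 above lung). Medians in place of means kept 548 enriched and 143 depleted genes. Against single organs, heart was higher for 2828 genes (16.5%) and lower for 2744 (16%) than brain. It was higher for 1837 (10.7%) and lower for 2139 (12.5%) than kidney, and higher for 2659 (15.6%) and lower for 2002 (11.7%) than liver. Against lung, heart was higher for 1846 (10.8%) and lower for 2560 (15%). The balance of higher and lower genes moved with array scaling. Quantile normalised again, the arrays gave 2081 higher and 2230 lower for lung, and 2019 and 1981 for kidney. Median centring gave 2079 and 2210 for lung, and 1828 and 2140 for kidney. For brain and liver the larger side stayed the same under both scalings. For brain it changed with other settings: 1241 higher and 1559 lower with a minimum of 4-fold, and 5207 and 5793 over all probe sets. A test against a difference of 1 gave 2239 and 2314 for brain.

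**Figure D1:**
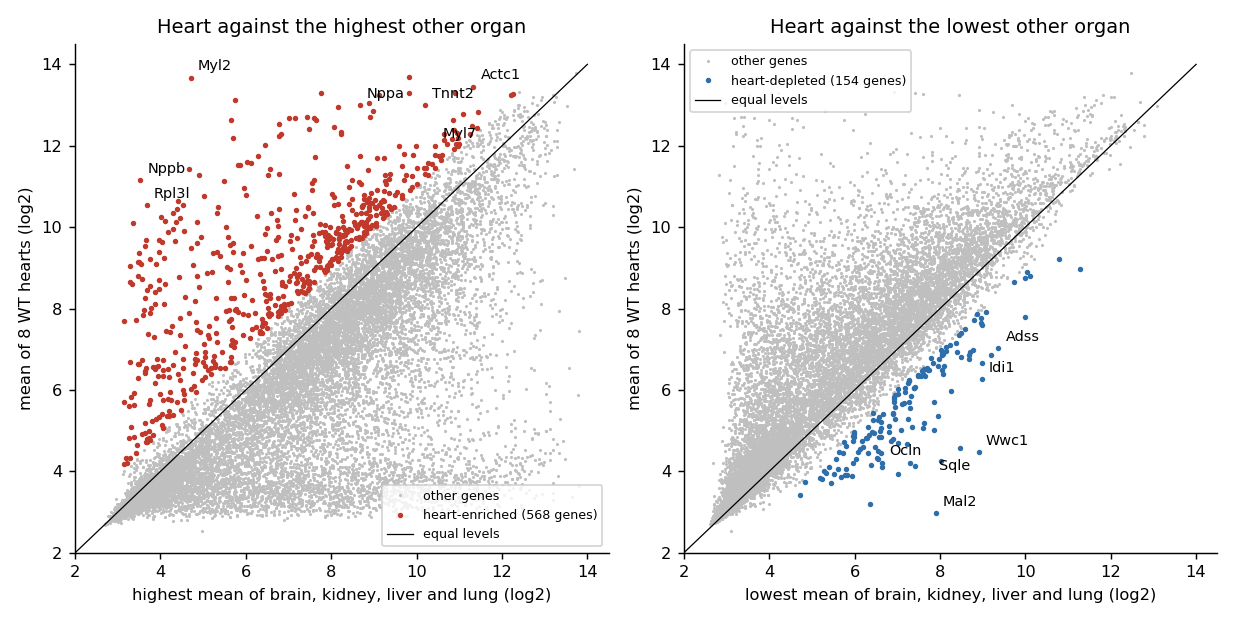
Mean log2 value of 8 WT hearts for each of 17097 genes against the highest (left) and the lowest (right) mean of the 4 other WT organs; each point is a gene, red marks the 568 heart-enriched and blue the 154 heart-depleted genes, and the line marks equal levels. The red points reach far above the line, with Myl2 at 13.67 in heart, and the blue points lie closer to it, with Mal2 at 2.97.

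Promoter sequences are shown for 5 heart-enriched genes and 1 heart-depleted gene to place known muscle motifs beside the measurements. Each line gives the 250 bases before a RefSeq start (build GRCm38.p6), 5′ to 3′ on the gene's strand, and capitals mark every match to the 8 motifs searched. Nppb, which encodes B-type natriuretic peptide, lies at chr4:147985650-147985899 on the plus strand, with the TATA box motif TATAAA, the GATA factor motif AGATAA and, on the other strand, the M-CAT motif CATTCC in capitals. Myl3, the ventricular essential light chain, lies at chr9:110763428-110763677 on the plus strand, with a CArG box, the binding motif of serum response factor, and 2 CATTCC matches. Actc1, cardiac actin, lies at chr2:114052876-114053125 on the minus strand, with a CArG box. Myl7, the atrial regulatory light chain, lies at chr11:5898783-5899032 on the minus strand, with a CArG box and CATTCC. Mybpc3, cardiac myosin binding protein C, lies at chr2:91117894-91118143 on the plus strand, with a MEF2 site and 1 match to GGGCGG, the GC box. Msmo1, an enzyme of sterol synthesis that was low in heart, lies at chr8:64733579-64733828 on the minus strand, with 2 matches to GGGCGG.
Nppb: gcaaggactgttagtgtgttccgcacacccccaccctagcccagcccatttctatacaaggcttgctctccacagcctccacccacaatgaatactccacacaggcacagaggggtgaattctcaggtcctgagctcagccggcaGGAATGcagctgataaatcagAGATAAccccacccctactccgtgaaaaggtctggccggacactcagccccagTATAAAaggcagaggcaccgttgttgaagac
Myl3: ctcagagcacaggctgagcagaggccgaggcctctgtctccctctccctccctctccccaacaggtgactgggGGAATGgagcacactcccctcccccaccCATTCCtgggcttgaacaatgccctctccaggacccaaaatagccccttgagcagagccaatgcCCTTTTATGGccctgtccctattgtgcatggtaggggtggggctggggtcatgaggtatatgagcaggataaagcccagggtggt
Actc1: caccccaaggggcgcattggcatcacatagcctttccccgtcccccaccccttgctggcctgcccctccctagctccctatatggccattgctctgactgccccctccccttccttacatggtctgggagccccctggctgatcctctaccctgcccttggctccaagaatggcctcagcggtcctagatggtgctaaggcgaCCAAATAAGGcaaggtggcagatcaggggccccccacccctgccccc
Myl7: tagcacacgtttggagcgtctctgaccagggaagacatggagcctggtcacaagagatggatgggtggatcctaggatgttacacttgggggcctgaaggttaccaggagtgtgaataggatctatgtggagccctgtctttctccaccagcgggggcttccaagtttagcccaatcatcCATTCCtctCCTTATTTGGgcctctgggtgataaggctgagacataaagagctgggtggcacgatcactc
Mybpc3: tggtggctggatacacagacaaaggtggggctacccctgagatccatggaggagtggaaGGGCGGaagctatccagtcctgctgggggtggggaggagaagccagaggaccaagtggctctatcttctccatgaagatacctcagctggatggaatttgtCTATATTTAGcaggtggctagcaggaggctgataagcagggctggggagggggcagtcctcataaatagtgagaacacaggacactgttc
Msmo1: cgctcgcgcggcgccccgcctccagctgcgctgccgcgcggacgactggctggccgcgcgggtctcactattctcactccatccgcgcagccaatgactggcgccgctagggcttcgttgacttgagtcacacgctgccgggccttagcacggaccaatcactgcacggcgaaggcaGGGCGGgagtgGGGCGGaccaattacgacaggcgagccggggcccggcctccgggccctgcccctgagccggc

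Of 568 heart-enriched genes, 462 had a promoter in the RefSeq table, as had 132 of the 154 depleted and 13605 of all 17097 genes. Counted over genes with a match in any of their 250-base promoters on either strand, a CArG box was present in 3.46% of enriched, 2.27% of depleted and 1.51% of all measured genes, and a MEF2 site in 5.84%, 0% and 2.32%. CATTCC was present in 17.5% of enriched, 12.1% of depleted and 13.5% of all genes, AGATAA in 10.2%, 5.30% and 8.70%, and TATAAA in 12.6%, 9.09% and 10.7%. GGGCGG was present in 53.5% of enriched, 78.8% of depleted and 53.5% of all genes. TNAAGGTCA, the motif of estrogen-related receptors, was present in 0.433%, 0% and 1.12%, and TCACNCCAC, the sterol response motif, in 1.52%, 3.03% and 1.30%. Among the 10 thick filament genes, 3 held a CArG box and 3 a MEF2 site, and among 24 genes of the thin filament and Z disc, 5 and 3 did. Over all 32851 promoters of the table the CArG box was in 1.47%, the MEF2 site in 2.92%, CATTCC in 12.6%, AGATAA in 9.99%, TATAAA in 12.4%, TNAAGGTCA in 1.14%, TCACNCCAC in 1.05% and GGGCGG in 32.7%. These motifs can overlap one another, since CArG boxes and MEF2 sites are rich in A and T, and the shares are descriptions with no test.

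Genes of the thick filament were the most uniformly enriched. Of 10 measured members, 9 were heart-enriched, beside 3.32% of all genes, and the median of heart minus the mean of the other organs was 7.58, beside -0.01 over all genes. Myl2, the ventricular regulatory light chain, was at 13.6 to 13.79 in the 8 hearts, with a median of 13.66. The highest of the 32 other arrays was the lung of 903 at 7.87, so the groups were far apart. The mean difference was 8.96 ± 0.38 (SE) from liver, the next organ, with an adjusted p of 1.08e-23. Myl3 was 7.38 ± 0.26 above lung, Mybpc3 6.97 ± 0.23 above lung, and Ttn, the giant spring protein titin, 5.47 ± 0.35 above lung. The probe set named Myh7 (slow myosin heavy chain) was at 13.03 to 13.47 in heart and at 9.11 ± 1.11 (SD, n = 8) in lung. Myh7 and Myh6 are near-identical neighbours, and signal from the one can reach a probe set of the other, so the level of Myh7 is uncertain; a second probe set of the gene also stood above the next organ, by 2.63.

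The thin filament and Z disc followed, with 27 of 33 measured members enriched (3.32% of all genes) and a median difference of 5.93. Actc1 was at 13.24 to 13.57 in heart with a median of 13.47, Tnni3 (cardiac troponin I) at 12.96 to 13.17 with a median of 13.02, and Tnnt2 had a median of 12.97. For all 3 genes the next organ was lung, at means of 11.33, 8.88 and 10.18, and no lung reached the lowest heart. Other members stood farther above lung. Lmod3 and Lmod2, leiomodins that nucleate thin filaments, were 6.74 ± 0.13 and 6.37 ± 0.18 above it. Myoz2, a Z disc protein, was 5.27 ± 0.27 and Hspb7, a small heat shock protein of muscle, 5.47 ± 0.21 above it. Trim54, a muscle ubiquitin ligase at microtubules and Z discs, was 6.06 ± 0.18 and Mypn, another Z disc protein, 6.03 ± 0.16 above the next organ. Acta1, skeletal actin, was at 11 to 11.52 in heart, but 3 lungs lay far above the rest: 12.26 in 1265, 11.08 in 903 and 7.93 in 1960. Those lungs also had raised skeletal muscle lists, and the part of this in the mean difference of 4.77 ± 0.94 was not tested. The median of heart minus that of lung (4.45) was 6.83.

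Lung was the next organ for 177 of the 568 enriched genes, kidney for 165, brain for 115 and liver for 111. How often each organ was the highest of the 4 over all genes was not counted, so these numbers give no order of organs. The genes with lung as the next organ included several that atrial muscle uses. In whole organs, fewer cells of a type and less RNA per cell cannot be told apart. Myl7 was at 11.87 to 12.21 in heart with a median of 11.97. It was at 8.52 to 11.58 in lung with a median of 10.66, so the highest lung came within 0.3 of the lowest heart, and in the other 24 arrays no value exceeded 4.5. The difference from lung was 1.57 ± 0.22 (adjusted p = 3.31e-08). Myl4, the atrial essential light chain, was 2.01 ± 0.29 and Actc1 2.13 ± 0.15 above lung. Nppa was 4.34 ± 0.52 above lung, where single lungs ran from 3.25 to 10.57 with a median of 9.45. Myl2 differed: 7 of the 8 lungs were at 3.56 to 4.55, near background, and 1, that of 903, was at 7.87. Lung 903 was the highest and lung 1960 the lowest for Myl7 and Tnnt2, and the other 6 lungs held Myl7 at 10.07 to 10.8, Tnnt2 at 9.77 to 10.57 and Myl2 at 3.56 to 4.55. By lists, heart stood above lung by a median of 1.30 for 12 atrial genes and 5.55 for 9 ventricular genes. The atrial median was also the smaller against brain (2.07 and 7.95), kidney (2.61 and 8.51) and liver (3.56 and 8.21), so this order was not particular to lung.

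**Figure D2:**
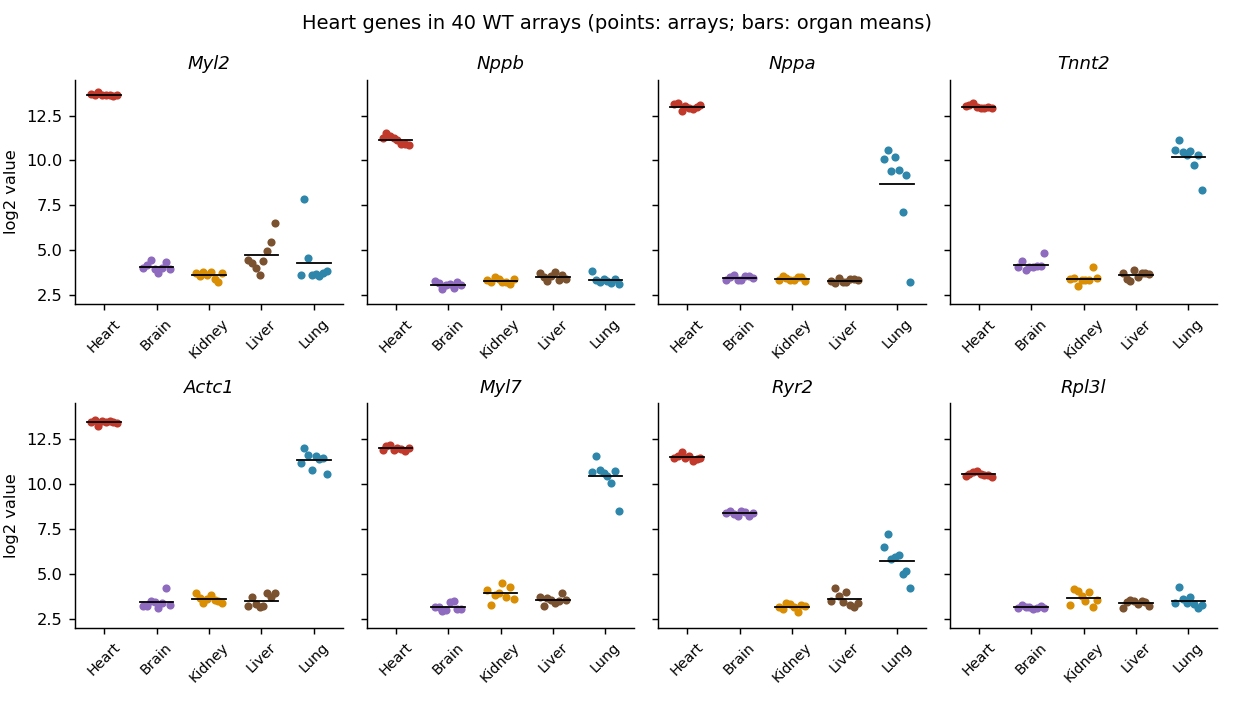
Log2 values of 8 heart genes in the 40 WT arrays, 8 per organ; each point is an array and each bar an organ mean. Hearts lie in a narrow band for each gene; lungs reach 10 to 12 for Tnnt2, Actc1 and Myl7 and scatter from 3.25 to 10.57 for Nppa, while Myl2, Nppb and Rpl3l stay near background in most other arrays.

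Calcium handling genes were enriched in 13 of 23 measured members (median difference 3.03), beside 3.32% of all genes. Ryr2, the cardiac ryanodine receptor, was at 11.31 to 11.81 in heart with a median of 11.46, and brain was next at a mean of 8.38, a difference of 3.12 ± 0.22 (adjusted p = 2.63e-16). Hrc and Casq2, which bind calcium in the sarcoplasmic reticulum, were 6.48 ± 0.24 and 5.56 ± 0.24 above lung. Pln (phospholamban, the brake on the calcium pump) was at 13.17 to 13.41 and 5.55 ± 0.33 above lung. Its target Atp2a2, the SERCA2 pump, was at 13.12 to 13.42 in heart and at a mean of 12.21 in brain. By the probe set used it stood 1.05 ± 0.16 above the next organ, and its 3 probe sets ran from 0.61 to 2.0. The difference of 1.05 became 0.85, no longer called, when the arrays were quantile normalised again. Fkbp1b, a ryanodine receptor partner, was near background in heart at a mean of 3.68 and reached 7.69 in brain. Ppp1r1a, an inhibitor of protein phosphatase, was at 4.91 in heart and 9.83 in kidney.

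Genes of the costamere, intercalated disc and dystrophin complex anchor the sarcomere to the membrane and join the cells. Of 33 measured, 19 were enriched (median 3.08), beside 3.32% of all genes. Itgb1bp2 (melusin, which binds integrin) was 6.03 ± 0.18, Nrap 6.06 ± 0.20, Alpk2 (an alpha kinase) 5.88 ± 0.14, Sgca (alpha-sarcoglycan) 5.66 ± 0.14 and Des (the muscle intermediate filament desmin) 3.07 ± 0.17 above lung. Dsg2, a desmosome cadherin, was not enriched, since its liver mean was the higher: 10.33 ± 0.16 (SD, n = 8) in heart and 10.78 ± 0.13 in liver. Of 27 ion channel and gap junction genes 10 were enriched. Popdc2 and Bves, Popeye domain proteins that bind cyclic AMP, were 5.64 ± 0.11 and 4.53 ± 0.10 above lung. Kcnj5, a channel opened by G proteins, was 4.52 ± 0.10 above lung, and Kcnip2, which tunes the transient outward potassium current, 1.72 ± 0.27 above brain. Cacna1d, a calcium channel subunit known from pacemaker cells, was called heart-depleted by 1.10 ± 0.12, a call that KO organs did not share and that was lost (-0.52) when its 2 probe sets were averaged, and Gja5, the atrial and conduction gap junction protein, was near background at a mean of 3.81.

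Of 31 genes of natriuretic peptides and cardiac signalling, 7 were enriched. Nppb was at 10.87 to 11.52 in heart with a median of 11.18, while none of the 32 other arrays exceeded 3.85. It stood 7.63 ± 0.09 above liver (adjusted p = 2e-41), where its level was near background. Corin, the protease that activates Nppa, was 4.76 ± 0.16 above kidney, and Vegfb, a growth factor of vessels and lipid uptake, 2.36 ± 0.09 above brain. Fgf13 was at a mean of 10.05 in heart but 10.57 in brain, and the apelin receptor Aplnr was at 9.33 in heart but 9.89 in lung, so neither was enriched over all organs. Of 36 cardiac transcription and RNA regulators, 9 were enriched, beside 3.32% of all genes. Tbx20 was 5.60 ± 0.16 above lung, Nkx2-5 4.62 ± 0.08 above liver, and Myocd, the partner of serum response factor, 4.78 ± 0.13 above lung. Smyd1, a muscle methyltransferase, was 5.27 ± 0.14 and Rbm20, which directs titin splicing, 5.02 ± 0.13 above the next organ. Tbx2, known from non-chamber myocardium, was at 3.94 in heart and 8.79 in lung.

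Energy genes were high in heart, with kidney and liver close behind. Of 38 genes of fatty acid oxidation, 13 were enriched, beside 3.32% of all genes. Cpt1b, the muscle form of the carnitine palmitoyltransferase that admits fatty acids to mitochondria, was at 11.61 to 11.84 in heart with a median of 11.7, and it was 4.09 ± 0.22 above kidney (adjusted p = 6.34e-20). Fabp3, the heart fatty acid binding protein, was 3.47 ± 0.27 and Pdk4, which holds back pyruvate oxidation, 3.68 ± 0.34 above kidney. Acacb, whose product malonyl-CoA limits Cpt1, was 1.34 ± 0.21 above liver by 1 of its 2 probe sets, but the other was at -0.02 against the highest organ and the average of both, 0.66, was not called. Of 24 genes of the TCA cycle (citric acid cycle), 8 were enriched, among them Cs, citrate synthase (1.53 ± 0.08 above kidney). Idh2, mitochondrial isocitrate dehydrogenase, was 1.36 ± 0.11 above kidney by 1 probe set and 0.05 above the highest organ by the other, and their average, 0.71, was not called.

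Of 33 genes of complex I, the first enzyme of the respiratory chain, 7 were enriched, beside 3.32% of all genes. However, heart was called higher for all 33 than lung (10.8% of all genes) and for 28 than brain (16.5%). It was called higher for 24 than liver (15.6%) and for 7 than kidney (10.7%). The median of heart minus organ was 2.2 for lung, 1.32 for brain, 1.17 for liver and 0.78 for kidney. All 33 members lay above the mean of the other organs, by 0.77 to 2.05. Ndufa5, a subunit of the matrix arm, was at 11.98 to 12.33 in heart and 1.35 ± 0.11 above kidney. Complexes III, IV and V gave the same order, with medians of 1.71, 1.09, 0.94 and 0.56 for lung, brain, liver and kidney. When the arrays were quantile normalised again, brain and liver changed places in both lists: 1.12 and 1.26 for complex I, and 0.87 and 1.01 for complexes III, IV and V. Of the 37 members of complexes III, IV and V only 4 were enriched, and 3 of these were the muscle isoforms Cox8b (5.09 ± 0.34 above kidney), Cox7a1 (4.40 ± 0.30 above kidney) and Cox6a2 (3.87 ± 0.24 above lung). The fourth was Atp5g1, which encodes subunit c of ATP synthase, at 1.41 ± 0.07 above kidney.

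**Figure D3:**
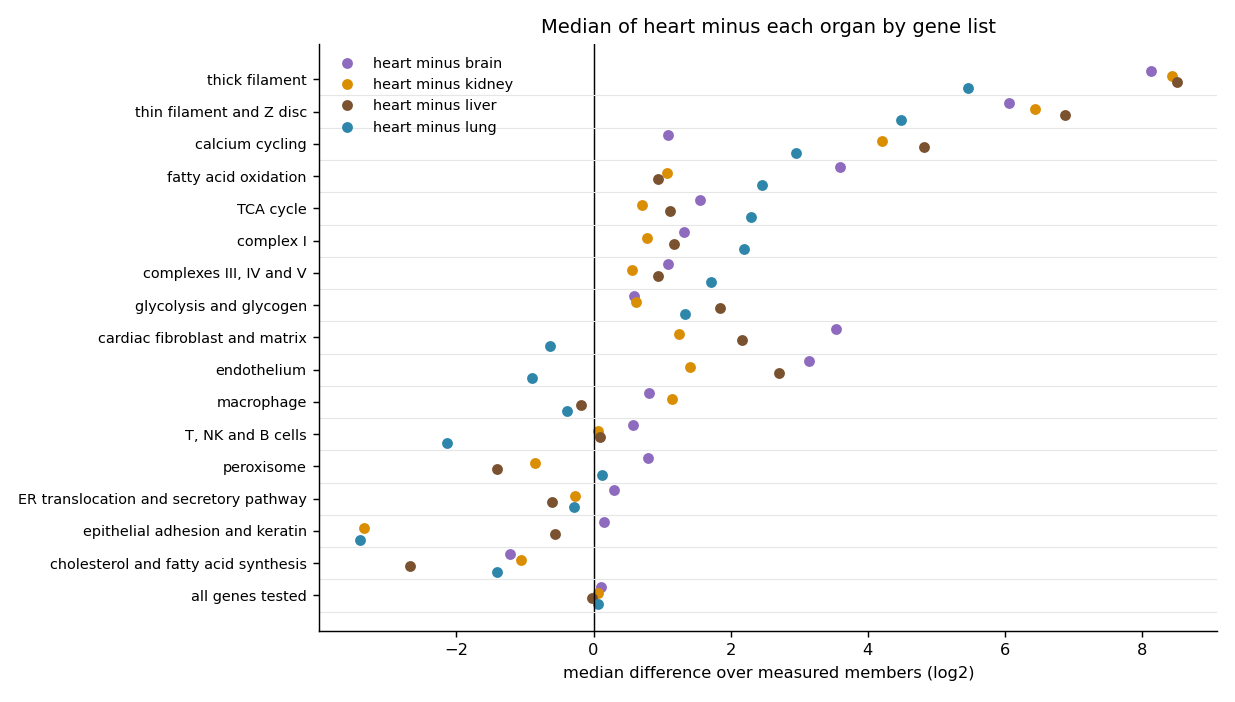
Median over the measured members of each gene list of the difference heart minus brain, kidney, liver or lung (log2), from WT organ means of 8 arrays each. The thick and thin filament lists lie far right against every organ and nearest to 0 against lung; mitochondrial lists lie nearest to 0 against kidney or liver; the sterol and fatty acid synthesis list lies left of 0 against all 4 organs.

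For several enzymes and a ribosomal protein the muscle form was enriched in heart and the form used elsewhere was not. Rpl3l, the muscle paralog of ribosomal protein L3, was at 10.38 to 10.71 in heart, and no other array exceeded 4.28. It stood 6.87 ± 0.12 above kidney (adjusted p = 1.86e-36), while Rpl3 itself was at 11.34 in heart, between 0.22 and 0.99 below the other organs. Rpl3l was the only one of 36 ribosomal protein genes that was enriched, a share of 2.78%, near the 3.32% of all genes. Cox6a1 and Cox8a, the general forms beside Cox6a2 and Cox8b, were 1.10 ± 0.04 and 1.40 ± 0.06 below kidney. Cox7a2, the general form beside Cox7a1, was not low in heart: its 2 probe sets stood 0.21 and 0.24 above the highest other organ. In the purine nucleotide cycle, Adssl1, the muscle adenylosuccinate synthase, was at 9.37 to 10.13 in heart and 1.88 ± 0.18 above liver, whereas Adss was at 6.69 to 7.35 and 2.34 ± 0.08 below liver, the lowest other organ (adjusted p = 6.86e-27). Adss lay at 9.36 to 9.60 on average in all 4 other organs, so heart alone was low. Of glycogen phosphorylases, Pygm (muscle form) was 4.52 ± 0.19 and Pygb (brain form) 1.85 ± 0.15 above brain, and Pygl (liver form) was 5.02 ± 0.19 below liver. Eno3 was 5.0 ± 0.21 above lung, while Eno2 was near background at 3.43. Aldoc (aldolase C) was depleted, by 2.17 ± 0.19. Ckmt2 and Ckm, the muscle creatine kinases of mitochondria and cytosol, were 5.52 ± 0.36 and 5.68 ± 0.52 above lung. Mb (myoglobin, the oxygen store) was at 13.6 to 13.78 in heart and 3.87 ± 0.54 above lung, but a second probe set of Mb differed by only -0.01 from the mean of the other organs. Pfkm, muscle phosphofructokinase, was 1.04 ± 0.12 above brain, and 0.82, no longer called, when the arrays were quantile normalised again. Pfkl, the liver form, was 1.22 above the mean of the other organs but was not enriched. Against the highest organ its 3 probe sets ran from -0.01 to 0.45, and the 2 of Pfkp, another form, from -1.54 to -0.36. Ldha, the lactate dehydrogenase subunit of glycolytic muscle, was called against no organ, and Ldhb, the heart subunit, was higher than liver and lung only.

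Genes of skeletal muscle were mostly near background in heart. Of 28 measured skeletal paralogs, 4 were enriched, beside 3.32% of all genes. The median difference was -0.02 (0.04 with every array centred on its median). Myh4, Myh1 and Tnnt3 (fast myosin heavy chains and troponin T) were at 2.85 to 3.76 in all 8 hearts. The exceptions were Myl1, at 10.02 to 10.54 and 2.90 ± 0.53 above lung, Casq1 (2.08 ± 0.25 above lung), Tnnt1 (1.24 ± 0.21 above brain) and Cacna1s (1.01 ± 0.14 above lung), the last just inside the minimum of 1. Cacna1s fell below the minimum without the heart of 876 (0.96), 902 (0.93), 903 (0.97) or 936 (0.94).

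Heart-depleted genes were fewer. Of the 154, 18 were in any of the gene lists, as were 161 of the 568 enriched genes, so most genes of both sets lie outside the lists. Mal2, a transport protein of polarised epithelial membranes, was at 2.73 to 3.33 in heart with a median of 2.96, near background. All 32 other arrays were far higher, with organ means of 7.90 in kidney to 10.56 in lung. The difference from kidney, the lowest, was -4.93 ± 0.15 (adjusted p = 5.25e-29), a size that the background of the heart arrays limits. Wwc1 (KIBRA, a Hippo pathway scaffold) was at 3.73 to 5.45 in heart and 4.43 ± 0.17 log2 units below brain. Reps2 (endocytosis) was 3.76 ± 0.15 below liver, Cobl (an actin nucleator) 3.28 ± 0.16 below liver, and Exph5 (vesicle transport) 3.16 ± 0.18 and Alcam (a cell adhesion molecule) 3.09 ± 0.11 below kidney. Cadps2, which primes dense-core vesicles, was 3.09 ± 0.18 below kidney, and Prkcz, the atypical kinase of cell polarity, 2.55 ± 0.09 below liver. Igfbp2, an insulin-like growth factor binding protein, was at 3 to 4.11 in 7 hearts and at 6.91 in heart 903, and the difference of -2.55 from kidney became -2.95 without that heart. Tlcd4, a membrane protein, was 2.56 ± 0.16 below lung. In 61 of the 154 depleted genes the heart mean was under 5.

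The probe sets of Paip1 and Rabgap1l went opposite ways. Paip1, a poly(A) binding protein partner, was 2.84 ± 0.08 below lung, but the 3 probe sets of the gene ran from -3.61 to 1.13 in heart minus the mean of the other organs. The 5 probe sets of Rabgap1l, a regulator of Rab GTPases, ran from -3.51 to 2.93, and the mean of them stood 0.94 above the lowest organ. Among the depleted genes, 89 had several probe sets, and in 19 of these every probe set was at least 1 log2 unit below all organs, while in 73 every probe set lay below the mean of the 4 organs. For enriched genes the numbers were 121 and 237 of 264. Probe sets of other named genes also differed in size. Against the highest organ, those of Kcnip2 ran from -0.27 to 1.72 and those of Smyd1 from -0.21 to 5.27. Those of Myl4 ran from 0.53 to 2.01 and those of Atp2a2 from 0.61 to 2.0. Those of Atp5g1 ran from 0.01 to 1.41 and those of Des from 0.26 to 3.07. Against the mean of the other organs, those of Wwc1 ran from -5.41 to -0.25 and those of Tlcd4 from -3.79 to -0.24.

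Sterol and fatty acid synthesis was the list with most depleted members, 8 of 27, beside 0.901% of all genes, and its median difference was -1.61. Sqle, squalene epoxidase, was at 4.05 to 5.31 in heart with a median of 4.5. No heart reached the other organs, whose means were 8.48 in lung to 9.78 in liver, and the difference from lung was -3.91 ± 0.17 (adjusted p = 1.33e-22). Idi1, which isomerises isopentenyl diphosphate, was 2.70 ± 0.28 below brain, Msmo1 1.92 ± 0.14 below kidney, and Cyp51, a sterol demethylase, 1.46 ± 0.15 below lung. Fads2, a fatty acid desaturase, was 2.11 ± 0.10 below lung, and Fads1, Nsdhl and the regulator Srebf2 were the other 3 depleted members. Heart was called lower than liver for 24 of the 27 (11.7% of all genes), lower than lung for 17 (15%), and lower than brain for 14 (16%) and kidney for 14 (12.5%). Acacb, whose probe sets disagreed, was the 1 enriched member. In KO organs 9 members were depleted, 7 of them shared. For Msmo1 and Cyp51 the mean over all probe sets stood under the minimum, at -0.94 and -0.67.

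**Figure D4:**
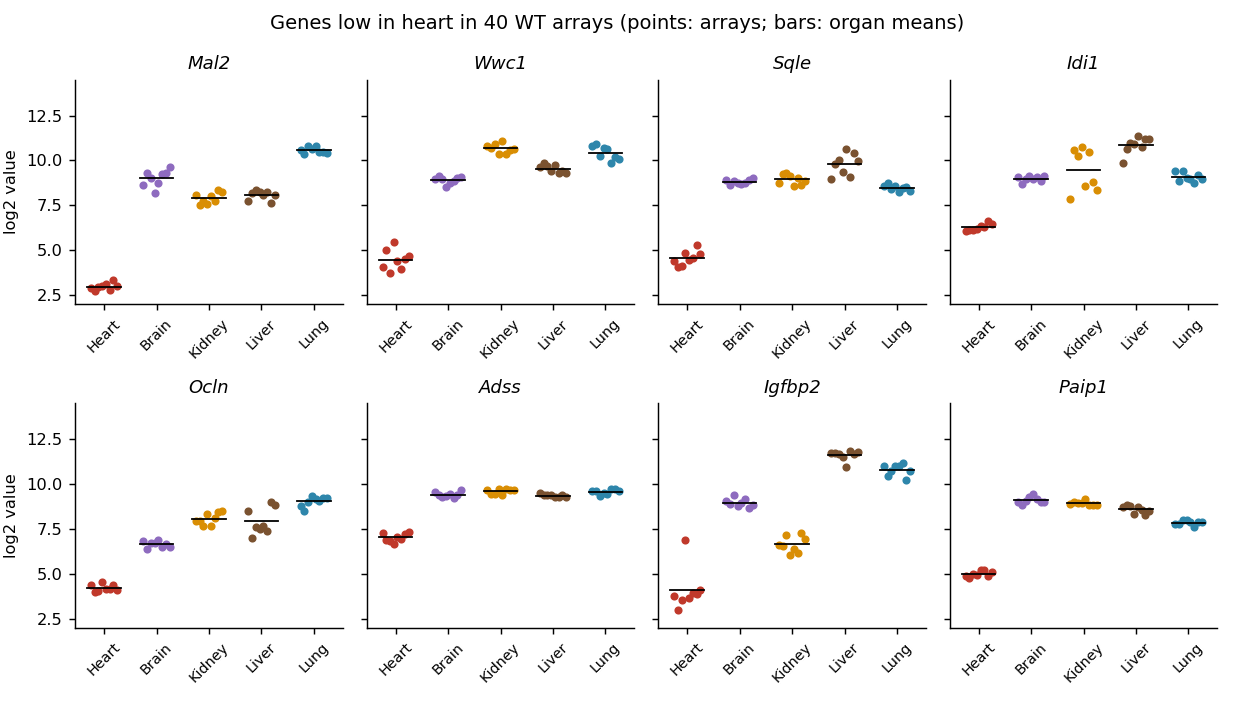
Log2 values of 8 heart-depleted genes in the 40 WT arrays, 8 per organ; each point is an array and each bar an organ mean. Hearts lie below every other array for Mal2, Sqle and Adss; 1 heart, that of 903, stands at 6.91 for Igfbp2, and the kidneys fall into a high and a low set for Idi1.

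Epithelial adhesion and keratin genes were low in heart against kidney and lung. Of 30 members, heart was lower than lung for 28 (15% of all genes), kidney for 27 (12.5%) and liver for 14 (11.7%), while the 3 called lower than brain were no more than the share of all genes (16%). Of the list only Ocln (occludin of tight junctions, 2.43 ± 0.19 below brain) and Prom1 were depleted. Prom1 was 1.74 ± 0.53 below liver, where single livers varied with an SD of 2.25, and it was 0.76 below and no longer called without the heart of 903, the brain of 1264, the livers of 1264 and 1265 and the lungs of 903 and 1265. Cdh1 (E-cadherin) was at a mean of 3.07 in heart, 3.86 in brain and 10.39 in lung, and Epcam at 3.52, 3.49 and 9.69. Heart was lower than liver for 21 of 35 glutathione and xenobiotic enzymes and for 16 of 26 peroxisomal genes. Gclc, which limits glutathione synthesis, was the depleted member of the former, 1.78 ± 0.14 below brain.

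**Figure D5:**
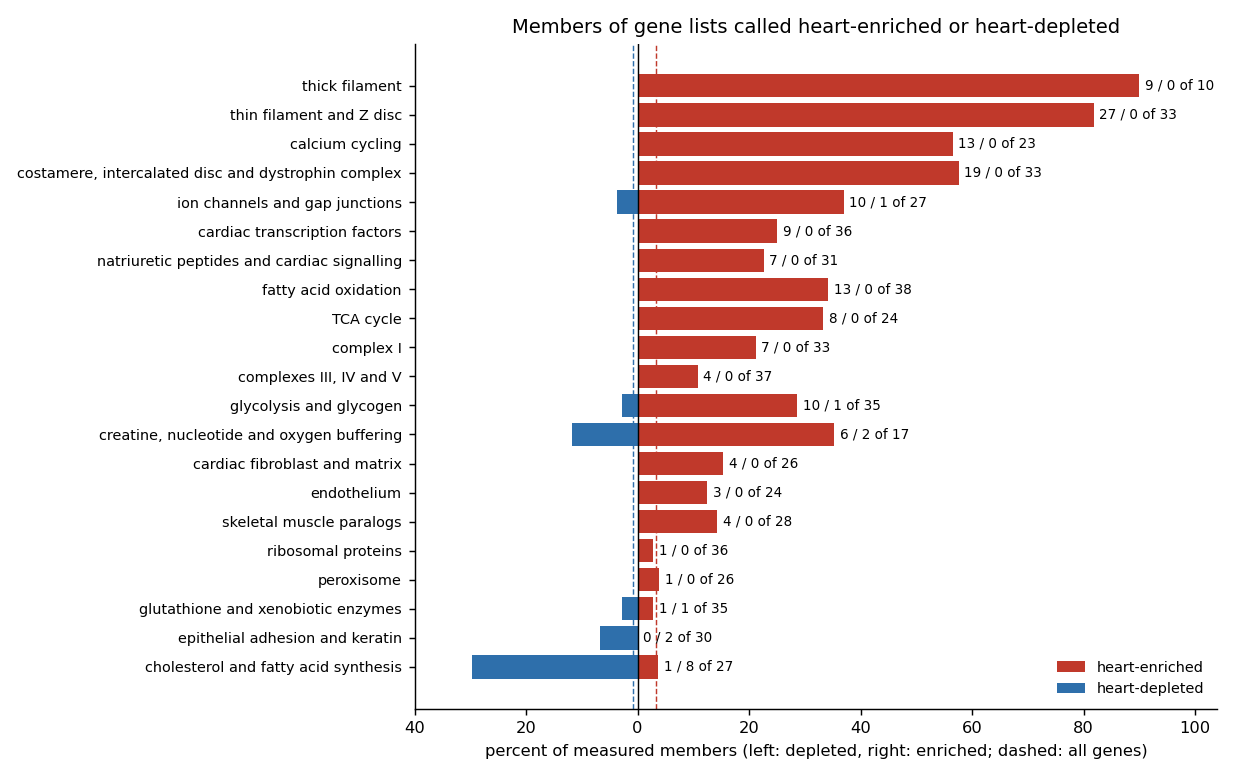
Percent of the measured members of 21 gene lists called heart-enriched (right) or heart-depleted (left) in WT mice; the text at each bar gives enriched / depleted of measured members, and dashed lines mark 3.32% and 0.901% of all 17097 genes. The thick filament list has 9 of 10 members enriched, and the sterol and fatty acid synthesis list has 8 of 27 depleted.

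Matrix and endothelial genes were often called higher in heart than in brain, kidney and liver. Against lung, the numbers called higher were near the share of all genes, and more were called lower. Of 26 fibroblast and matrix genes, 4 were enriched (15.4%, beside 3.32% of all genes), among them Lum (lumican, a collagen-binding proteoglycan, 3.04 ± 0.33 above liver) and Col15a1 (1.79 ± 0.14 above kidney). Heart was higher than brain for 21 (16.5% of all genes), kidney for 16 (10.7%) and liver for 19 (15.6%). It was higher than lung for 4 (10.8%) and lower than lung for 10 (15%). Of 24 endothelial genes, 3 were enriched, and heart was higher than brain for 21 (16.5% of all genes), liver for 22 (15.6%) and kidney for 17 (10.7%) but higher than lung for 3 (10.8%) and lower than lung for 10 (15%). Fabp4, which in heart lies in capillary endothelium and in fat, was at 12.39 to 12.6 in heart and 1.18 ± 0.37 above kidney, a call that KO organs did not share. Tcf15, a factor of heart endothelium, was 2.23 ± 0.12 above liver. Of smooth muscle and pericyte genes, Rgs5 was 2.09 ± 0.22 and Kcnj8 2.94 ± 0.19 above the next organ. None of 19 macrophage genes and none of 18 T, NK and B cell genes was enriched, which at 3.32% of all genes says little of lists this short. Of 10 adipocyte genes, 2 were enriched in WT and 0 in KO organs: Fabp4 and Cidea, a lipid droplet protein, at 9.03 to 9.92 in heart and 1.82 ± 0.41 above kidney. Other members varied among hearts: Adipoq (adiponectin) ran from 6.45 to 9.97 and Ucp1, of brown fat, from 3.59 to 9.33, and neither was called different from kidney, where their means were 9.18 and 7.63.

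The KO organs, from other animals, gave 549 enriched and 150 depleted genes (3.21% and 0.877%) by the same rule. Of these, 519 enriched genes were shared, 91.4% of the WT and 94.5% of the KO genes, and 129 depleted genes, 83.8% and 86%. The title of 1 KO heart, female 994, says heart where another of its fields says lung, and its ventricular list was at 10.85 and its lung list at 4.2. Other KO hearts held markers of another organ: the liver list was at 7.58 in 962 and 7.41 in 982, the lung list at 6.52 in 964 and 6.26 in 781, and the skeletal list at 6.47 in 1259. Without 781, 962, 964 and 982 the KO organs shared 89.6% of the enriched and 86.4% of the depleted WT genes, without 994 91% and 87%, and without 1259 91.4% and 83.1%. All 568 WT enriched and all 154 WT depleted genes kept their direction in the KO means. Myl2 stood 8.96 above the next KO organ, Nppb 7.66 and Mybpc3 6.75, and Mal2 stood 4.69 below and Sqle 3.87 below the lowest KO organ. All 27 thin filament and Z disc and all 9 thick filament genes enriched in WT were enriched in KO. A test of whether heart minus the mean of the other organs differed between genotypes called 2 of 17097 genes (0.0117%), none of them enriched or depleted in WT. Lrrc27 (a leucine-rich repeat protein) was 2.12 higher and Ano4 (a TMEM16 family protein) 0.59 lower in KO. At an unadjusted p under 0.05 the number was 555, and the test called 4 without the WT heart of 903 and 5 without the KO hearts of 781, 962, 964 and 982.

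Among the 8 hearts, the largest departures were those of 903. Apoa1, Ttr and Serpina1a, plasma proteins made in liver, were at 10.92, 11.06 and 9.93 in that heart, and the other 7 hearts did not exceed 6.04, 5.63 and 4.66. Without it the rule gave 571 enriched and 155 depleted genes, of which 563 and 148 were among the 568 and 154. Its thick filament list was at 11.64, within the 11.46 to 11.71 of the others. The heart of 876 had the lowest erythroid list, 6.88 against 8.16 to 8.96. Alas2, a heme synthesis enzyme of red cell precursors, was at 6.13 in that heart and at 8.95 to 10.96 in the others.

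Male and female hearts differed in 61 genes (limma, adjusted p), 16 higher (0.0936%) and 45 lower (0.263%) in males, but the number turned on single hearts. It was 129 without the heart of 902, 110 without 1262, 24 without 1265, 21 without 901, 19 without 903 and 17 without 1264. Genes called in the full set and with each heart left out in turn numbered 13. They were the Y-linked Eif2s3y (5.42 higher in males), Uty (2.70) and Kdm5d (2.68), the X-linked Xist (4.96 lower), Kdm5c, Pbdc1, Eif2s3x and Kdm6a, and 5 others, all lower in males: Pdgfrl (-1.31), Cd83 (-1.28), the matrix gene Col14a1 (-1.25), 2210407C18Rik (-1.17) and Zfp979 (-1.07). These 13 were singled out after their values were seen. In KO hearts the sexes differed in 11 genes, 6 of them among the 61 with the same sign, and Cd83 was 0.46 higher in KO males. Whether heart minus the mean of the other organs differed by sex was tested too, and 77 genes (0.45%) were called, or 48 without the heart of 901.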

How the data were processed

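Expression was measured on 80 Affymetrix HT MG-430 PM arrays. The deposited values are log2 expression, and per the submitters' processing notes the tools were Affymetrix Expression Console, RMA and Partek, with versions not given in the sources used here. Of 45141 probe sets, 104 controls were left out. GEO's platform annotation named 1 gene for 28898 probe sets, several for 551 and none for 15588, and 28689 of the first were matched by gene ID to RefSeq. Where several probe sets named a gene, the brightest on average across the 80 arrays stood for it, which gave 17097 genes. The number of arrays limits the precision.

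Groups were taken from the sample titles. The 40 WT arrays were fitted with 5 organ means (limma 3.58.1, R 4.3.3, version 1.17.8 of data.table), with Benjamini-Hochberg adjustment within each comparison, an adjusted p threshold of 0.05 and a minimum log2 difference of 1. Tests by sex and by genotype used the adjusted p alone. The steps were tested on simulated data. The titles give the same animal number to several organs, which pairs the samples: deviations of heart from its group mean correlated with those of the same animal's organs at medians of 0.12 (brain), 0.17 (kidney), 0.09 (liver) and 0.19 (lung, 5 animals).

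The members and gene lists were chosen with earlier results of these data known. Named genes were the 15 most enriched and 15 most depleted, the 6 highest and 6 lowest members of each list, isoform partners, cell type markers, the leading genes of the sex and genotype tests, and genes shared with 1 organ. Fads1, Nsdhl, Srebf2, Pdgfrl, Cd83, 2210407C18Rik and Kdm6a were named after their values were seen. Promoters came from RefSeq (GRCm38.p6). Alternatives are given in the closing section.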

Additional observations from a re-analysis of the deposited data

Results flagged for a closer look

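In each group of 8 WT hearts the highest or lowest value was compared with its neighbour by Dixon's criterion, which chance meets in about 1 of 20 groups. Of 550 genes and lists examined, 60 met it, 29 of them through the heart of 903. Of the 208 genes and lists followed here, 21 met it, 9 of them through the heart of 903. In that heart Apoa1 was at 10.92, Ttr at 11.06, Serpina1a at 9.93, Acaa1b (a peroxisomal thiolase) at 7.83, Igfbp2 at 6.91, Krt8 (keratin 8) at 6.26 and Slc2a2 (the liver glucose transporter) at 5.72, all the highest of 8, and the liver marker list was at 9.68. Cd163, a macrophage scavenger receptor, was lowest there at 5.46. In the heart of 876 Alas2 was lowest at 6.13, Hba-a1 (alpha globin) at 13.15, the erythroid list at 6.88 and Itgb1bp2 at 10.31, and Eno2 was highest at 3.79. In the heart of 901 Gja3 (a connexin) was lowest at 7.01, Gpr22 (an orphan receptor) at 7.15 and Rbm20 at 10.09, and Exph5 was highest at 3.54 and Bin1 (which shapes T-tubules) at 6.96. In the heart of 1265 Cox7a1 was lowest at 12.12 and Tnnt1 highest at 8.14.

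The difference of heart from the mean of the other organs differed between the sexes by 1.53 for Xist, 0.75 for Eif2s3y, -1.32 for Pdgfrl, -1.02 for Zfp979 and -0.51 for Pbdc1 (male minus female). Between genotypes it differed by 2.12 for Lrrc27 and -0.59 for Ano4 (KO minus WT).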

How the results depend on the processing

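Of 4823 values of 193 genes recomputed under the alternatives, 4733 kept their call or stayed uncalled, 80 lost the call and 9 gained one. Only 1 called value reversed: Rabgap1l was 0.94 when its probe sets were averaged. Changes of sign among uncalled values were not counted. With the animal as a replicate block the rule gave 570 enriched and 155 depleted genes, and the block moved no count of calls by 1.5 times. A minimum of 1.5-fold gave 1024 enriched and 359 depleted genes, 3021 higher than kidney, and 2810 higher and 4000 lower than lung. A minimum of 4-fold gave 248 and 34, with 1241 higher and 1559 lower than brain, 708 and 1098 for kidney, 1210 and 1068 for liver, and 791 and 893 for lung. A test against a difference of 1 gave 91 depleted genes. All probe sets, more features than genes, gave 1105 and 292, with 5207 higher and 5793 lower than brain, 3482 and 3884 for kidney, 5120 and 3657 for liver, and 3576 and 5029 for lung. The sex count in hearts, 61, was 17 to 129 with single arrays left out, 99 with array weights, 32 with quantile normalisation, 121 with median centring, 100 over all probe sets and 25 without 6 WT arrays holding markers of another organ. That last alternative, and leaving out the KO heart of 994 or 1259, were chosen after seeing the data. The sex count of the contrast was 48 to 105 with single arrays left out. The genotype count was 2 to 4 with single arrays left out, 5 without 4 KO hearts and 4 without the 6 arrays. The cause of these shifts was not tested, except that minimum differences and all probe sets change what is counted. Median centring moved the median of all genes from 0.06 to 0.18 against lung.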
